A study of Mus musculus with 12 samples.

Results

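Genes commonly used to recognise theca cells, Cyp17a1, Insl3, Aldh1a1 and Fbln1, were followed in single mouse ovarian follicles that had either been vitrified or stayed fresh. They were taken by symbol from the 11806 genes of the authors' deposited table, where all 4 were found and all 4 had an adjusted p. The set was chosen by the log2 fold changes and p-values of this same comparison, so those values are given as a description, with no test of the set.

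The study compared 6 fresh with 6 vitrified follicles, vitrification being cryopreservation by cooling into a glass-like solid. The mice of both groups were CD-1, an outbred stock, and 16 days old, with no engineered allele named in the labels. Each follicle was held alone in 0.5% alginate hydrogel, away from its ovary, in medium with recombinant follicle-stimulating hormone at 10 mIU/mL, and was grown for 8 days. The recorded culture medium names follicle-stimulating hormone and no luteinizing hormone. RNA of 1 follicle made 1 library, by a Smart-seq protocol. The labels do not tie follicles to animals, so p-values measure the spread between follicles, some of which may share a mouse. The files analysed hold 1 total per gene and the fold change between the groups, with no value for a single follicle, so the number of follicles behind any difference cannot be given.

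Theca cells form the outer coat of a growing follicle, outside the basement membrane that encloses the granulosa cells and the oocyte. Under luteinizing hormone they turn cholesterol into androgens, which granulosa cells convert to oestrogens. Cyp17a1 encodes the enzyme that commits progestins to androgen synthesis, and Insl3 a small peptide hormone of the relaxin family made by theca cells and by Leydig cells of the testis. Aldh1a1 encodes a retinaldehyde dehydrogenase, which makes retinoic acid, and Fbln1 encodes fibulin-1, a secreted glycoprotein of basement membranes and elastic fibres.

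Overlapping genes and near copies bear on how these values can be read. In GRCm38, the assembly called mm10, Cyp17a1 lies on chromosome 19 from 46667165 to 46673172 (minus strand) and Fbln1 on chromosome 15 from 85205949 to 85286535 (plus strand). Neither shares a 50-base window with another gene's transcripts, and no other annotated gene overlaps them. Insl3, on chromosome 8 from 71689214 to 71690575 (plus strand), lies inside the span of Jak3, a cytokine receptor kinase gene on the same strand. Its exon 1 of 219 bases has no base in a Jak3 exon, whereas its exon 2 of 404 bases lies wholly within exons of 2 of the 5 annotated Jak3 transcripts. Of the Insl3 windows, 60.9% therefore occur in Jak3 too, and the rule by which the authors assigned such reads was not given in the sources used here. Jak3 had a total of only 134 against 1009 for Insl3, and a log2 fold change of 0.02 (95% interval -0.90 to 0.94) by the authors' deposited table.

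The bases just upstream of Insl3 are shown because letters in them match a sequence known for a factor of steroid-making cells. The stretch is chr8:71689002-71689213 of GRCm38.p6, plus strand, from the RefSeq promoter table, and it ends where the GENCODE gene model begins. It lies between exons of Jak3, with 0 bases in them. Capitals mark CAAGGTC and CAAGGCC, the core of the binding sequence of steroidogenic factor 1 (the product of Nr5a1).
Insl3: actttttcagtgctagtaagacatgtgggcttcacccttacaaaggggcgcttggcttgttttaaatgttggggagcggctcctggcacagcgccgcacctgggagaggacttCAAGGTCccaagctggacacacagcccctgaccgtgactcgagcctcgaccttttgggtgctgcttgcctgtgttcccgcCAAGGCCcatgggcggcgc
The matches begin at -137 and -57 from the RefSeq start, both on the plus strand. Searched on both strands over windows of 300 bases, CAAGGTC is found in 3.96% of 32851 RefSeq promoters and CAAGGCC in 6.19%, and both together in 0.265%. AAAGGTCA, the sequence that the orphan receptor of Nr4a1 binds as a monomer, is found in 1.51% of promoters and not in this window. Only exact letters were searched, so near matches on either strand were not counted. Promoter windows were matched for 3 of the 4 genes, Cyp17a1 being the other. None of these 3 sequences was found in the windows of Aldh1a1 or Fbln1. A match of letters is a description and shows no binding.

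Aldh1a1, on chromosome 19 from 20492715 to 20643465 (plus strand), has a near copy, Aldh1a7, on the same chromosome from 20692953 to 20727562. The coding sequences are both 1503 bases long and identical at 91.6% of positions, with a longest identical run of 100 bases. Of the Aldh1a1 windows 4.91% occur in Aldh1a7, and 8.64% of the Aldh1a7 windows occur in Aldh1a1. The first 120 coding bases from GENCODE are shown to let a reader judge how short reads could be told apart, with the 10 differing bases in capitals.
Aldh1a1: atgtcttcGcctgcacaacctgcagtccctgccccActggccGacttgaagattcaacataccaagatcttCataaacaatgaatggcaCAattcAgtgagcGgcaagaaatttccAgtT
Aldh1a7: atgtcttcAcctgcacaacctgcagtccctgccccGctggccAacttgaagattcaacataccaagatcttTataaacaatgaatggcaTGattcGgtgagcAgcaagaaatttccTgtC
The differences are spread over the stretch, and the longest runs without one are in its first part. Aldh1a1 also overlaps C730002L08Rik and Gm6684 on the opposite strand, neither of which shares an exon base with it, and these were not analysed here.

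Pooled over both groups, Aldh1a1 had a total of 10364, Fbln1 of 10218, Cyp17a1 of 1186 and Insl3 of 1009 by the authors' deposited table. These totals run over genes of unequal length. Per kb of exon the order was Fbln1 with 2339, Aldh1a1 with 2099, Insl3 with 1620 and Cyp17a1 with 428. Exon length here counts every exon base of any annotated transcript. It was 4937 for Aldh1a1 over 6 transcripts and 4368 for Fbln1 over 3. For Cyp17a1 it was 2769 over 4 transcripts and for Insl3 623 over 1. The order therefore depends on the annotation, and which transcripts the follicles expressed was not tested. The table gives no error for a total, so whether neighbours in this order differ was not tested. All 4 lay above the median tested gene at 73.3 per kb, between percentile 88.0 for Cyp17a1 and percentile 97.1 for Fbln1, so RNA of all 4 markers was present in the pool.

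The step before Cyp17a1 was far more abundant. Hsd3b1, which makes progesterone from pregnenolone, had 234763 per kb, 548 times the level of Cyp17a1, and the granulosa hormone gene Inha had 760572. Cyp11a1, the side-chain cleavage enzyme, stood at 3653 per kb and Lhcgr, the luteinizing hormone receptor gene, at 1996. The granulosa enzyme genes Hsd17b1 and Cyp19a1 (aromatase) stood at 26572 and 3037 per kb. Star, which carries cholesterol into mitochondria, stood at 92.8 per kb, at percentile 57.1 of tested genes. The levels of Hsd3b1, Cyp11a1 and Lhcgr do not separate theca from granulosa cells, since granulosa cells of advanced follicles can express them too.

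**Figure D1:**
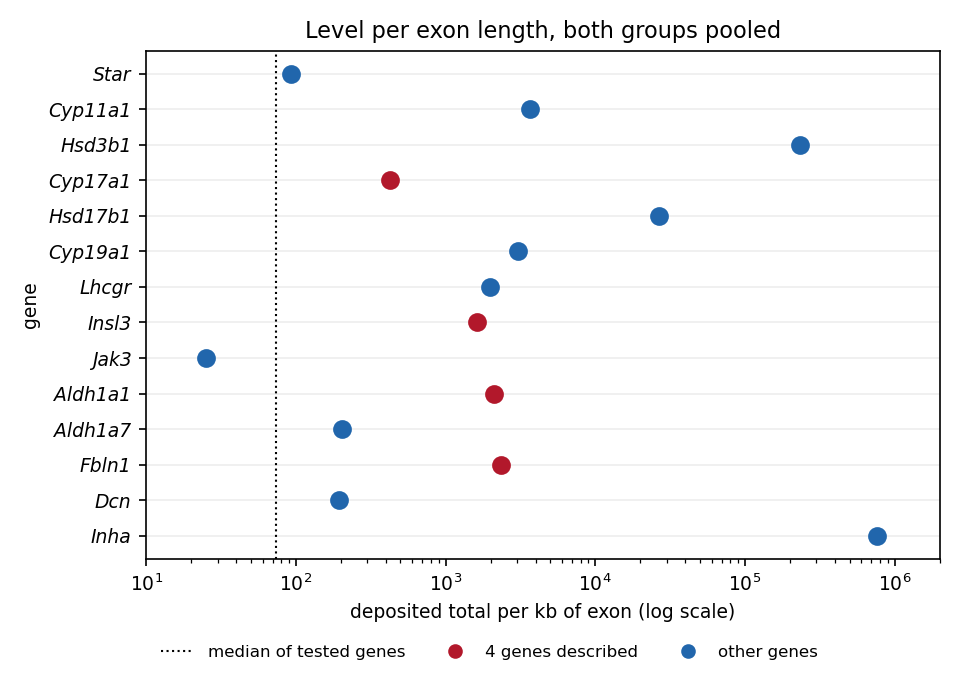
Deposited total per kb of exon on a log scale for steroid route genes, the 4 theca markers (red) and genes compared with them (blue), with the median tested gene as a dotted line at 73.3. Cyp17a1 at 428 sits far to the left of Hsd3b1 at 234763, and Insl3 at 1620 far to the right of the overlapping gene Jak3.

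Of the 4 markers 3 had higher values in vitrified follicles, as 46.8% of tested genes did, and Fbln1 a lower one. Insl3 was 6.52-fold higher, Cyp17a1 2.76-fold higher, Aldh1a1 2.28-fold higher and Fbln1 1.41-fold lower by the authors' deposited table. None of the 4 passed an adjusted p of 0.05 (0 of 4), which 0.529% of the 10963 tested genes did. An unadjusted p under 0.05 was held by 3 of the 4, Insl3, Aldh1a1 and Fbln1, against 7.02% of tested genes. A fold change of at least 2 in either direction was held by Insl3, Cyp17a1 and Aldh1a1, against 1.77% of tested genes. The markers were chosen with this contrast in view, so nothing is read from these shares. In RNA of whole follicles, more cells of a type and more RNA per cell cannot be told apart.

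For Insl3, the hormone gene, the log2 fold change was 2.70 (95% interval 1.06 to 4.34, derived from the fold change and its p) with a p of 0.00123 and an adjusted p of 0.144 by the authors' deposited table. As a ratio the interval runs from 2.09-fold to 20.3-fold. It was the gene with the fifth highest log2 fold change of the 10963, and 94th by p. Its place by p stands behind its place by size, and its error was large, as given further on.

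Its hormone relatives and their receptors could not be set beside it. The 8 genes listed for them, among them Rxfp2, the receptor gene of this hormone, and Rln1, a relaxin gene, were not analysed here, 0 of 8 having a value.

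For the androgen enzyme gene Cyp17a1 the log2 fold change was 1.47 (-0.04 to 2.97), with a p of 0.0566 and an adjusted p of 0.735 by the authors' deposited table. The interval holds both no difference and a 7.85-fold higher level in vitrified follicles. By log2 fold change it was the 24th highest gene, but it was only the 847th by p. For Cyp17a1 these data therefore do not show a difference between the groups, and do not show its absence.

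Aldh1a1, the retinaldehyde dehydrogenase gene, had a log2 fold change of 1.19 (0.50 to 1.88), a p of 0.000682 and an adjusted p of 0.0976 by the authors' deposited table. Its p was the lowest of the 4 markers, at place 77 of all tested genes. Its copy Aldh1a7 stood at 0.72 (-0.12 to 1.55) on a total of 421, with a p of 0.0918 by the authors' deposited table. Aldh1a1 had 24.6 times that total, and the part of reads shared between both was not tested.

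Fbln1, the matrix gene, stood on the other side, with a log2 fold change of -0.50 (-0.86 to -0.13), a p of 0.00815 and an adjusted p of 0.343 by the authors' deposited table. As a ratio of vitrified to fresh the interval runs from 0.549 to 0.915. It ends below the intervals of the other 3 markers. Of all tested genes, 7.66% had a log2 fold change at least as low as that of Fbln1, against 0.0456% at least as high as that of Insl3.

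**Figure D2:**
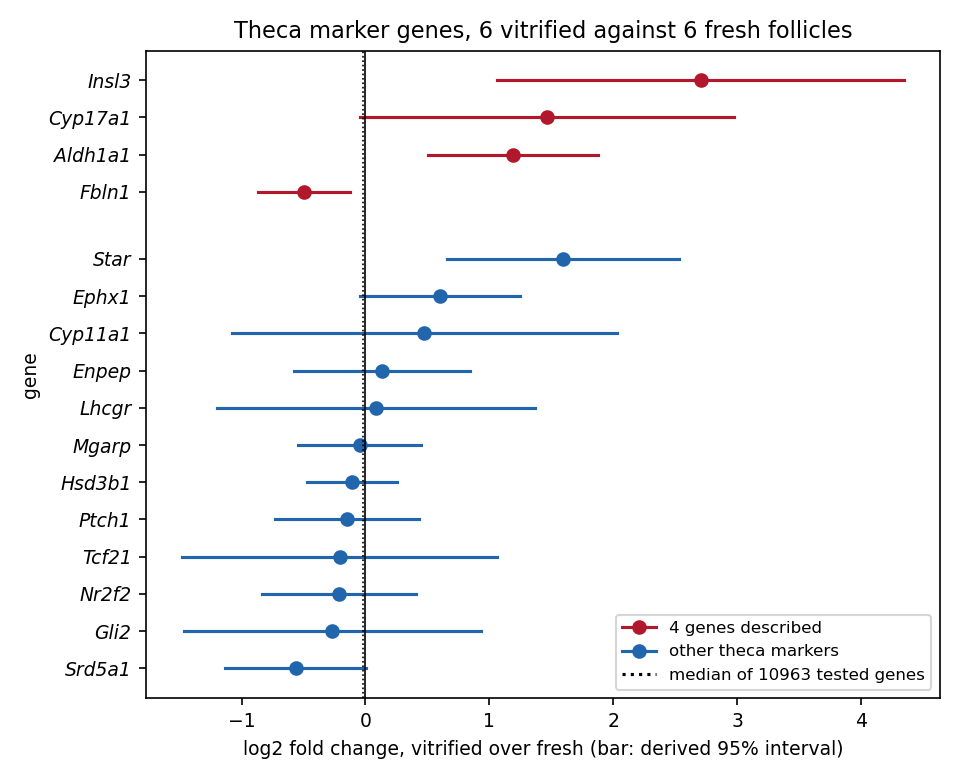
Log2 fold change of vitrified over fresh follicles (points) with derived 95% intervals (bars) for the 4 theca markers in red and 12 other theca markers in blue, and the median tested gene as a dotted line at -0.02. Insl3 at 2.70, Cyp17a1 at 1.47 and Aldh1a1 at 1.19 lie to the right and Fbln1 at -0.50 to the left, while the intervals of 11 of the 12 other theca markers span 0.

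**Figure D3:**
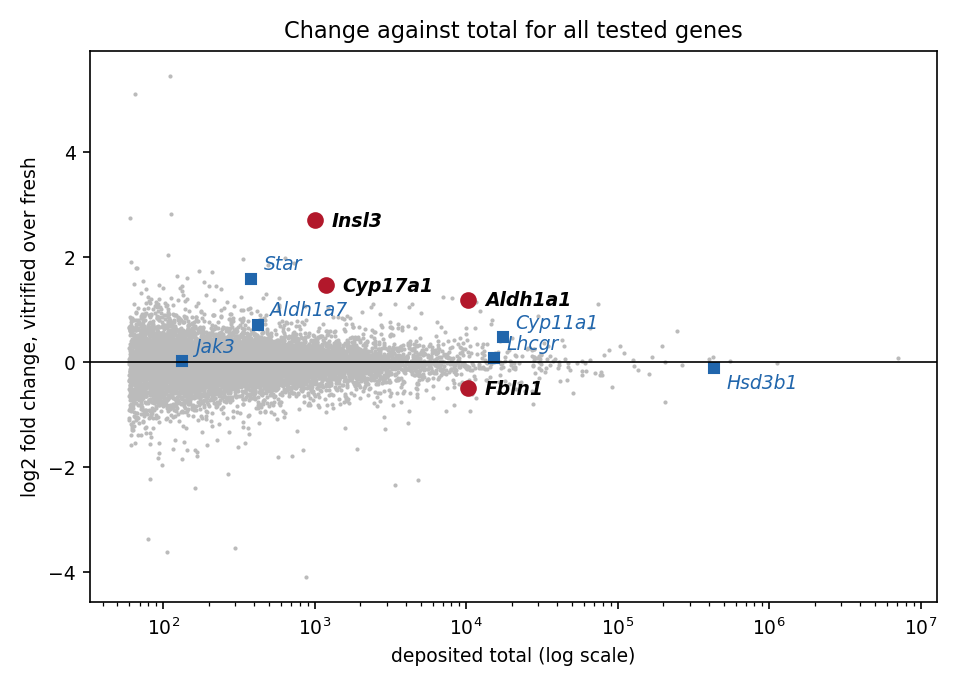
Log2 fold change of vitrified over fresh against the deposited total on a log scale for the 10963 tested genes (grey), the 4 theca markers (red circles) and 6 genes compared with them (blue squares). Insl3 at 2.70 and Aldh1a1 at 1.19 sit at the upper edge of genes of like total, and Jak3 at 0.02 lies within the cloud.

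The 4 markers also differed in how precisely the comparison measured them. The derived standard error of the log2 fold change was 0.84 for Insl3 and 0.77 for Cyp17a1, where 548 genes of like total (924 to 1232) had a median of 0.20. The error of Insl3 was the highest of these 548 and that of Cyp17a1 lay at percentile 99.8. For Aldh1a1 it was 0.35, at percentile 95.6 of the 549 genes with the highest totals (3514 to 7095782, a far wider range). For Fbln1 it was 0.19, at percentile 38.3 of the same genes. This error is derived from the log2 fold change and its p, the values by which the 4 genes were chosen, so it describes them and supports nothing further. The error holds counting error and the spread between follicles together. Whether 1 or a few follicles carry it was not tested, as no value per follicle was analysed here.

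The same description was made for marker lists of the follicle's cells. Errors above the 90th percentile of genes of like total were counted in each list. They were held by 8 of 12 other theca markers, 7 of 9 stroma markers and 6 of 7 endothelial markers. The same held for 5 of 5 smooth muscle and pericyte markers, 7 of 8 oocyte markers and 2 of 15 granulosa markers. Nr2f2 and Tcf21 are in both the theca and the stroma list. The granulosa genes Inha, Gja1 and Inhba were ranked among the 549 genes of the highest totals, a wide range (3514 to 7095782). Cyp11a1 and Lhcgr had errors of 0.79 and 0.66 in spite of totals of 17548 and 15259, and Hsd3b1 had 0.18. The stroma collagen genes Col1a2 and Col3a1 had 0.59 and 0.58, and the endothelial cadherin gene Cdh5 0.91. No list was tested against another.

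**Figure D4:**
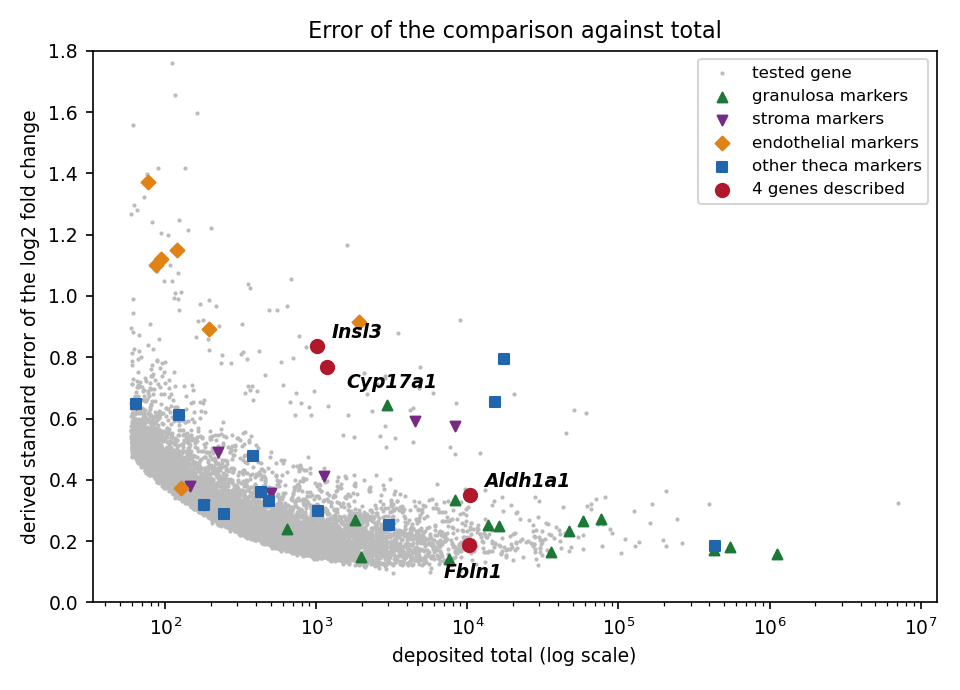
Derived standard error of the log2 fold change against the deposited total on a log scale for tested genes (grey) and marker lists (coloured symbols), with 2 tested genes above the top of the axis at 1.8. Insl3 at 0.84 and Cyp17a1 at 0.77 lie far above genes of like total, Aldh1a1 at 0.35 less so, and Fbln1 at 0.19 lies among them.

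Other markers of theca cells lay on both sides of 0. Of 18 listed, 13 were in the table and 12 were tested. In vitrified follicles 5 of them were higher and 7 lower, where 46.8% of all tested genes were higher. Their median log2 fold change was -0.08 against -0.02 over all tested genes. Some are not particular to theca cells, as granulosa cells can express Hsd3b1, Cyp11a1 and Lhcgr, and Nr2f2 is also listed for stroma. None of the 12 passed the adjusted p (0 of 12), against 0.529% of all tested genes. An unadjusted p under 0.05 was held by 1, Star, against 7.02% of all tested genes. Star was 3.02-fold higher in vitrified follicles, with a 95% interval of 0.66 to 2.53 on the log2 scale and an adjusted p of 0.111, by the authors' deposited table. Next by p came 2 genes on either side of 0. Srd5a1, which reduces androgens and progestins, stood at -0.56 (-1.13 to 0.00) and the epoxide hydrolase gene Ephx1 at 0.60 (-0.05 to 1.25) by the authors' deposited table. Lhcgr, through which luteinizing hormone acts on theca cells, stood at 0.08 (-1.20 to 1.37), and Mgarp, a mitochondrial protein gene of steroid-making cells, at -0.05 (-0.54 to 0.45) by the authors' deposited table. Gli1, Bmp4, Bmp7, Fgf7 and Hgf were not analysed here.

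Along the steroid route that Cyp17a1 belongs to, 20 of 25 listed genes were tested, with 9 higher and 11 lower and a median of -0.02. In this list 0 passed the adjusted p, while 3 higher and 0 lower had an unadjusted p under 0.05. The shares over all tested genes were 46.8% higher, 0.529% past the adjusted p and 7.02% with an unadjusted p under 0.05. Upstream of Cyp17a1, Cyp11a1 had a log2 fold change of 0.47 (-1.08 to 2.03), its electron donor gene Fdx1 0.67 (0.24 to 1.10) and Hsd3b1 -0.11 (-0.47 to 0.25) by the authors' deposited table. The partners that pass electrons to the Cyp17a1 enzyme or modulate it, Por and Cyb5a, stood at -0.07 and -0.03 by the authors' deposited table. Downstream, Hsd17b1 stood at -0.06 and Cyp19a1 at -0.02 by the authors' deposited table. Akr1c14, a hydroxysteroid dehydrogenase gene, stood at 0.88 (0.23 to 1.53) with an adjusted p of 0.343 by the authors' deposited table. The interval of Cyp11a1 was about as wide as that of Cyp17a1 (-0.04 to 2.97), and the intervals overlapped.

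Around Aldh1a1, 13 of 23 retinoid genes were tested, 7 higher and 6 lower, with a median of 0.06 and 0 past the adjusted p or an unadjusted p of 0.05. For comparison, 46.8% of all tested genes were higher, 0.529% passed the adjusted p and 7.02% had an unadjusted p under 0.05. Aldh1a2, another retinaldehyde dehydrogenase gene, stood at -0.09, the retinol dehydrogenase gene Rdh10 at 0.25 and the retinol uptake receptor gene Stra6 at -0.76 by the authors' deposited table. The retinoic acid receptor genes Rara and Rarg stood at 0.18 and -0.45 by the authors' deposited table. Cyp26b1, which degrades retinoic acid, had a log2 fold change of 1.04 (-0.66 to 2.73) on a total of 41.7, without an adjusted p, by the authors' deposited table. The intervals of the 14 retinoid genes described from the table held 0, and those of Cyp26b1 and Aldh1a7 (-0.12 to 1.55) also held the 1.19 of Aldh1a1.

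Around Fbln1, 16 of 24 genes of fibulins and elastic fibres were tested, 6 higher and 10 lower, with a median of -0.20. In this list 0 passed the adjusted p, and 1 higher and 2 lower had an unadjusted p under 0.05. Over all tested genes 46.8% were higher, 0.529% passed the adjusted p and 7.02% had an unadjusted p under 0.05. The microfibril gene Mfap2 stood at -0.79 (-1.34 to -0.24), the fibrillin gene Fbn1 at 0.98 (0.25 to 1.70) and Adamts1, a protease gene whose product cleaves versican, at -0.49 (-0.88 to -0.10) by the authors' deposited table. Fibulin-5 and fibulin-2 genes, Fbln5 and Fbln2, stood at 1.04 (-0.26 to 2.34) and -0.56 on totals of 68.4 and 128 by the authors' deposited table. The versican gene Vcan, a matrix partner of fibulin-1, stood at -0.10 by the authors' deposited table.

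Genes listed for signals that shape the theca gave no call, where 0.529% of all tested genes passed the adjusted p. The share of all tested genes that were higher was 46.8%, and 7.02% had an unadjusted p under 0.05. Hedgehog ligands from granulosa cells act on theca precursors, and of 11 tested hedgehog genes 3 were higher and 8 lower, with a median of -0.16, 0 past the adjusted p and 1, the co-receptor gene Cdon at 0.66 (0.18 to 1.14), with an unadjusted p under 0.05 by the authors' deposited table. The ligand genes Dhh and Ihh stood at -0.24 and 0.19 and the receptor gene Ptch1, itself a target of the pathway, at -0.15 (-0.73 to 0.44) by the authors' deposited table. Of 17 tested growth factor and receptor genes listed as signals to the theca, 6 were higher and 11 lower. Kit, Gdf9 and Bmp15 are also listed for the oocyte, and Inha, Inhba and Inhbb for granulosa cells. The median of the 17 was -0.17, and 0 passed the adjusted p. The 3 with an unadjusted p under 0.05 were all lower, namely the BMP receptor genes Bmpr1b at -0.63 and Bmpr2 at -0.51 and the activin subunit gene Inhbb at -0.57 by the authors' deposited table.

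Transcription factors of steroid-making cells had values on both sides of 0. Among all tested genes 46.8% were higher, 0.529% passed the adjusted p and 7.02% had an unadjusted p under 0.05. Of 16 tested, 5 were higher and 11 lower, with a median of -0.24 and 0 past the adjusted p, and 2 higher and 4 lower had an unadjusted p under 0.05 (the lower ones were Foxo1, Nr4a1, Creb1 and Cebpa). The steroidogenic factor 1 gene Nr5a1 stood at 0.40 with a p of 0.0212, and Gata4 at 0.46 (0.19 to 0.73) with an adjusted p of 0.111, by the authors' deposited table. Nr4a1 stood at -2.25 (-3.62 to -0.88) and Foxo1 at -0.68 (-1.09 to -0.28), with adjusted p of 0.148 and 0.111, by the authors' deposited table. What these factors did at the 4 marker genes was not tested.

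Markers of the other cells of the follicle were read beside the 4 genes. Shares over all tested genes were 46.8% higher, 0.529% past the adjusted p and 7.02% with an unadjusted p under 0.05. Of the 15 tested granulosa markers 5 were higher and 10 lower (median -0.06, 0 past the adjusted p, 1 higher and 3 lower with an unadjusted p under 0.05). The 9 tested stroma markers had 5 higher and 4 lower values and a median of 0.08, with 0 at an unadjusted p under 0.05, and the proteoglycan gene Dcn at 0.12 (-0.69 to 0.92) by the authors' deposited table. Endothelial markers were lower in 7 of 7 (median -0.81) and smooth muscle and pericyte markers in 4 of 5 (median -0.26). Among all 10963 tested genes 5837 were lower. In both lists 0 passed the adjusted p, 0 of the tested genes had an unadjusted p under 0.05, and every tested gene's interval held 0. The muscle gene Tagln, on a total of 27.8 and without an adjusted p, stood at -3.27 (-5.88 to -0.65) with a p of 0.0144 by the authors' deposited table. With it the smooth muscle and pericyte median was -0.47. Cdh5 stood at -1.66 (-3.45 to 0.13) and the smooth muscle actin gene Acta2 at -0.67 (-2.41 to 1.07) by the authors' deposited table. Tested oocyte markers were higher in 8 of 8 (median 0.63), against 46.8% of all tested genes, and their intervals held 0. They too had 0 past the adjusted p and 0 at an unadjusted p under 0.05. Another 3 oocyte markers were deposited without an adjusted p, and 1 of these, the germ cell gene Dazl, lay in the other direction at -2.14 (-3.56 to -0.73) with a p of 0.00300 on a total of 44.3 by the authors' deposited table. Of 10 immune markers 1, Lyz2 at -1.05 by the authors' deposited table, was tested, and of 5 red blood cell genes 0. Of 8 surface epithelium markers 1, Krt8 at 0.22 (-0.82 to 1.27) by the authors' deposited table, was tested. Without an adjusted p, Krt7 stood at -1.90, Lgr5 at -1.59 and Upk3b at -2.59 by the authors' deposited table. Their totals were 51.5, 47.8 and 48.4, and each had an unadjusted p above 0.05. The part of these other cell types in the values of Insl3, Cyp17a1, Aldh1a1 and Fbln1 was not tested.

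**Figure D5:**
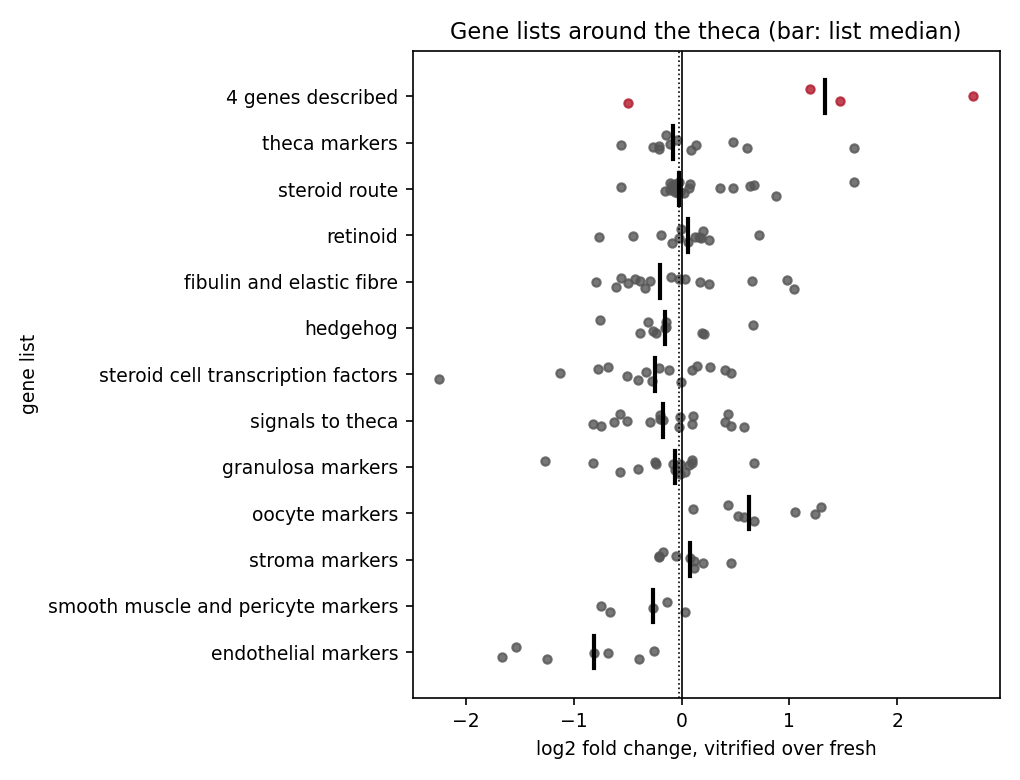
Log2 fold change of vitrified over fresh for each tested gene (points) of the 4 theca markers (red) and 12 gene lists (grey), with the median of each list as a black bar and the median of all tested genes as a dotted line at -0.02. The list medians lie between -0.81 for endothelial markers and 0.63 for oocyte markers, and the other theca markers centre on -0.08.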

How the data were processed

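RNA-seq of 12 single follicles was compared by the authors, and 1 table of that comparison was analysed. The total in it is a pooled abundance score deposited by the authors, of which 0.237% are whole within 0.001, so no count model was fitted. Per the file headers, each gene has a p-value before and after step-up adjustment. A log2 fold change and the same change as a signed fold were also deposited. Build mm10 and the tools HISAT2, Bowtie2, DESeq2 and Partek are named in the submitters' processing notes without a role. The test, the strand rule and the annotation were not given in the sources used here. Totals summed to 23783958. An adjusted p was missing for 843 genes, those with totals up to 59.4, and Benjamini-Hochberg values recomputed over the other 10963 differed from the deposited ones by at most 0.598%. "Tested" means having an adjusted p.

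The standard error was derived as the log2 fold change over the normal quantile of its two-sided p, and the 95% interval from it, which assumes a normal test. Like total means the same of 20 bins of total, of which the highest is wide, from 3514 to 7095782. Exon lengths, overlaps and shared windows (50 bases, every 25, both strands) came from GENCODE mouse release 21 (GRCm38), with lengths for 11663 genes, and sequences were aligned with Biopython 1.88 in Python 3.11.15. The arithmetic behind derived errors and adjusted p was tested on simulated data. Whether the authors' p came from a normal test was not tested.

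The 4 genes, the lists and the motifs were chosen with earlier results of these data known. The rule for named genes took the 4 genes, genes overlapping them, Aldh1a7, and up to 4 genes of each list with the lowest p. Other genes were named for their role after values were seen. Of the listed genes 3 are not reported here and are left out of the lists' counts.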

Additional observations from a re-analysis of the deposited data

How the results depend on the processing

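No paired analysis was possible because values of single follicles were not analysed here. For the same reason leaving out replicates, DESeq2 and edgeR were not run. The count of genes past the adjusted p was 58 as deposited and 58 when adjusted over all 11806 genes, and 57 over the 8808 genes with a total of at least 120. With the derived statistic read against a t distribution of 10 degrees of freedom it was 0, at a lowest adjusted p of 0.0642, with 498 genes at an unadjusted p under 0.05. Whether that distribution suits the authors' test is not known.

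The 12 alternatives run for Insl3, Cyp17a1, Aldh1a1 and Fbln1 could not change a direction, so they do not show how stable the values are. They subtracted a median of about -0.02 or kept the log2 fold change and altered only its interval. Centred on the median of tested genes the log2 fold changes were 2.73, 1.49, 1.21 and -0.47. If the deposited p came from a t distribution of 10 degrees of freedom, the intervals would be 1.35 to 4.06 for Insl3, -0.05 to 2.98 for Cyp17a1, 0.64 to 1.74 for Aldh1a1 and -0.83 to -0.16 for Fbln1. Of 48 alternatives over 12 list medians, 1 changed sign, that of the steroid route, at 0.0011 when centred on the median of tested genes. Centring moved every list median by the same small amount. Leaving out genes that share at least 50% of windows changed no list median, so neither setting tests these medians much. With no filter on totals the median of smooth muscle and pericyte markers went from -0.26 to -0.47 and that of the other theca markers from -0.08 to -0.05. The shared exon limits Insl3 whatever the setting, since 60.9% of its windows occur in Jak3.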
